A study of Mus musculus with 18 samples.

Results

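The gastrocnemius of HSA-LR mice given Pip6a-PMO was compared with the gastrocnemius of WT mice, to describe which RNA levels still differed from WT after treatment and which differed only after treatment. The members were the 3 treated and the 3 WT gastrocnemius libraries, chosen by their labels, 6 of the 18 libraries of the study. RNA was sequenced after polyA selection with a stranded protocol, from the gastrocnemius and the quadriceps, with 3 libraries per group and muscle that are numbered as replicates and taken here as 1 mouse each. The 3 groups were untreated WT mice of the FVB strain, untreated HSA-LR mice, and HSA-LR mice that received an intravenous injection of Pip6a-PMO, all of the fvb strain and aged 20 weeks. The labels also name an injection of saline, without saying which mice received it. The labels list every mouse as male apart from WT mouse 2, listed as female. HSA-LR mice carry a transgene of the human skeletal actin gene with a long CTG repeat, which is transcribed in skeletal muscle fibers, so other organs and other cell types of the muscle are not modeled. The WT mice carry no transgene, and no WT mice given Pip6a-PMO were sequenced. Treated against WT mice alone therefore cannot tell an effect of the compound apart from what the transgene left behind in the treated mice. The untreated HSA-LR mice show which differences were present without treatment. Whether a difference seen only after treatment needs the transgene cannot be told from these groups. The dose and the time after injection are not given for the sequenced mice in the sources used here.

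In myotonic dystrophy type 1, RNA with an expanded CUG repeat gathers in nuclear foci and binds muscleblind proteins, which are then missing from the splicing of other transcripts. Many of those transcripts encode proteins of excitation and contraction, such as the chloride channel Clcn1, whose loss delays relaxation, and the calcium pump Atp2a1. Pip6a-PMO joins a cell-penetrating peptide to a morpholino antisense oligomer of CAG repeats, which pairs with CUG repeats and blocks the binding of proteins without cutting the RNA.

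The deposited values were counts per exon bin, an exon bin being a stretch of exon between neighboring annotated exon ends, and a gene's count was the sum of its bins. Totals ran from 109483236 to 143135976 counts over the 9 gastrocnemius libraries. Levels are given as CPM, counts per library scaled to a common total after TMM, and log2 fold changes come from edgeR's quasi-likelihood test on the 9 gastrocnemius libraries in 1 fit. A gene was called at an adjusted P (Benjamini-Hochberg, over all genes tested) under 0.1. CPM values are not divided by gene length, so levels are compared between mice and not between genes. All these libraries are of whole muscle, in which fewer cells of a type and less RNA per cell cannot be told apart.

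The libraries were not uniform. Treated mouse 3 had the lowest coverage of 5′ relative to 3′ exon bins, a median log2 ratio of -2.41 against -2.05 to -1.93 in the other 8 gastrocnemius libraries. Treated mouse 1 had the highest mean level of slow fiber genes, 8.76 on the log2 CPM scale against 6.61 to 8.04. The Y-linked genes summed to 153 CPM in WT mouse 2, labeled female, and to 1.13 CPM in WT mouse 3, labeled male, whereas the other WT mouse had 165 CPM and the treated mice 133 to 171 CPM. The defining markers of muscle fibers were high in all 6 libraries (summed 175000 to 210000 CPM in WT and 184000 to 257000 CPM in treated mice). Summed levels of adipocyte, macrophage, neutrophil, lymphocyte, erythroid, endothelial, fibroblast, Schwann and nerve, tendon and mast cell markers overlapped between WT and treated mice. In all 6 libraries, 9 of the 11 neutrophil markers and 10 of the 12 lymphocyte markers were under 1 CPM. The sums did not overlap for 2 marker lists. Markers of smooth muscle and pericytes summed to 4200 to 4280 CPM in WT and 4520 to 5640 CPM in treated mice, and those of satellite cells to 174 to 213 CPM and 161 to 167 CPM. The median log2 fold change of the members had the opposite sign to the sum in both lists (-0.21 and 0.09), and 0 of the 11 members of each were called. The smooth muscle and pericyte list includes Des, which is also in the muscle fiber list, so its sum does not measure those cells alone. The part of these differences between libraries in the results was not tested.

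Of the 15625 genes tested, 163 were called in treated against WT gastrocnemius, 1.04% of the genes, with 93 higher (0.595%) and 70 lower (0.448%) in treated mice. The 3 treated mice lay on one side of the 3 WT mice in each of the 163, which was the case for 14.2% of all genes tested. The absolute log2 fold change ran from 0.34 to 6.17 with a median of 1.03, and 83 genes differed at least 2-fold (54 higher, 29 lower). For 18 of the called genes the means of both groups were under 1 CPM. Protein-coding genes made up 148 of the calls. On chromosome X, 10 of 516 genes tested were called (1.94%), and the other chromosomes ranged from 0.542% to 1.73%.

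The calls were sorted by the other contrasts of the same fit, which share the WT and treated libraries with this one. In HSA-LR against WT mice 15.5% of the genes were called, and in treated against HSA-LR mice 10%. Of the 163 genes, 138 were also called with the same sign in HSA-LR against WT mice and are described as staying different (86 higher, 52 lower). Another 18 were called against both other groups and not in HSA-LR against WT mice, and are described as newly changed (6 higher, 12 lower). The remaining 7 genes comprised 6 called against WT mice alone and 1, Cdkl2, called on opposite sides of WT in the untreated and treated HSA-LR mice. Among the 138 genes, 95 lay nearer to WT in treated than in untreated HSA-LR mice by log2 fold change, while 43 lay at least as far. The difference between treated and untreated HSA-LR mice was itself called for 39 of the 138 and not for 99.

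**Figure D1:**
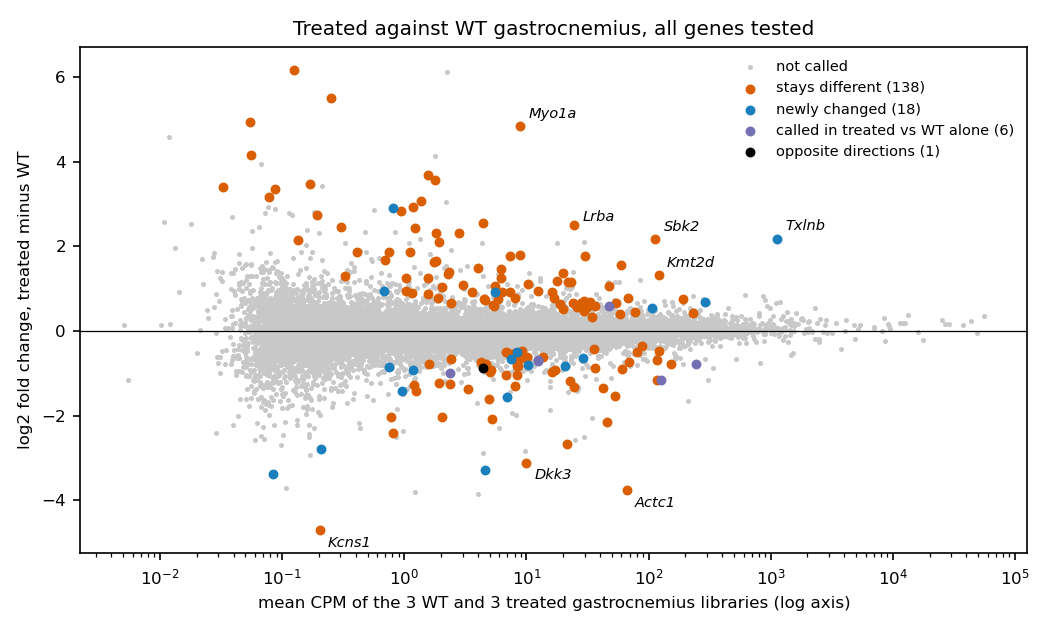
Each point is 1 of the genes tested, with its mean CPM over the 3 WT and 3 treated gastrocnemius libraries on the x axis (log scale) and its log2 fold change in treated minus WT mice on the y axis. Grey points are not called, and the 138 genes that stayed different, the 18 newly changed, the 6 called against WT alone and the 1 with opposite directions are colored. Txlnb, at over 1000 CPM, is the newly changed gene with the highest level, and Myo1a, Lrba, Sbk2 and Kmt2d are marked among the genes that stayed higher.

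Positions are those of GENCODE M21 on GRCm38, and only the chromosome is given where the ID of a gene had another version there. Among the genes that stayed higher, Myo1a (chromosome 10), which encodes the class I myosin of the intestinal brush border, had 0.294, 0.615 and 0.86 CPM in the WT mice, 43.9, 31.8 and 47.2 CPM in the untreated HSA-LR mice, and 13.7, 13.6 and 24.1 CPM in the treated mice. Every treated mouse lay below every untreated HSA-LR mouse and far above every WT mouse. The log2 fold change against WT was 4.84 (SE 0.387, adjusted P = 0.0017). With its bins divided into 3 parts of equal bin number from 5′ to 3′, the first part of Myo1a was almost without reads (mean 0.0183 CPM in WT and 0.0639 CPM in treated mice), and the difference lay in the middle and last parts (23.3 and 40.1 times WT).

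Lrba (chromosome 3, 86224680 to 86782692, plus strand) encodes a large anchor protein with a BEACH domain that takes part in vesicle traffic. It had 6.85, 8.45 and 6.61 CPM in WT, 50.3, 45.6 and 49.9 CPM in untreated HSA-LR and 48.8, 49.0 and 27.2 CPM in treated mice. Treated mice 1 and 2 lay within the range of the untreated HSA-LR mice and treated mouse 3 lay between the groups. Lrba rose by 2.51 on the log2 scale over WT (SE 0.215, adjusted P = 0.00234). Sbk2 (chromosome 7, 4940512 to 4964406, minus strand), a gene for a serine/threonine kinase with an SH3-binding domain, had 36.4, 47.0 and 40.8 CPM in WT, 168, 120 and 187 CPM in untreated HSA-LR, and 236, 169 and 151 CPM in treated mice, a log2 fold change of 2.17 (SE 0.209, adjusted P = 0.0035). Its treated and untreated HSA-LR mice overlapped, and both groups lay above all WT mice.

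Kmt2d (chromosome 15), which encodes a methyltransferase of histone H3 lysine 4 at enhancers, had 71.0, 74.2 and 61.8 CPM in WT, 227, 205 and 179 CPM in untreated HSA-LR and 176, 193 and 151 CPM in treated mice. The lowest treated mouse was above the highest WT mouse, and the log2 fold change was 1.33 (SE 0.125, adjusted P = 0.0035). Nxn (chromosome 11, 76257198 to 76399140, minus strand), the gene of the thioredoxin-like protein nucleoredoxin, showed a smaller difference with little spread: 43.2, 42.4 and 40.1 CPM in WT, 67.5, 68.7 and 68.9 CPM in untreated HSA-LR and 64.5, 67.4 and 66.5 CPM in treated mice (log2 fold change 0.66, SE 0.066, adjusted P = 0.0035).

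Genes of lower level were called as well. Serpinb1c, of the clade B serpins that inhibit proteases, had 0.865 to 1.01 CPM in WT, 4.03 to 5.52 CPM in untreated HSA-LR and 4.27 to 4.90 CPM in treated mice (log2 fold change 2.33, SE 0.153, adjusted P = 0.000427). Its reads could be split with those of close paralogs, so this value is uncertain. Trp73 (chromosome 4, 154056253 to 154140208, minus strand), a member of the p53 family, had 0.114 to 0.289 CPM in WT, 1.73 to 2.5 CPM in untreated HSA-LR and 1.99 to 3.56 CPM in treated mice (log2 fold change 3.69, SE 0.364, adjusted P = 0.0035). For Polq (chromosome 16, 37011786 to 37095417, plus strand), the gene of DNA polymerase theta, which joins broken ends, the treated mice (3.36, 2.44 and 2.16 CPM) lay between WT (0.777, 0.922 and 0.888 CPM) and untreated HSA-LR mice (7.17, 6.17 and 7.26 CPM) without touching either. Polq differed from WT by 1.62 on the log2 scale (SE 0.181, adjusted P = 0.00576) and from untreated HSA-LR mice by -1.37 (adjusted P = 0.00382).

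Among the genes that stayed lower, Sytl2 (chromosome 7, 90302252 to 90410719, plus strand), which encodes a Rab27 effector of vesicle transport, had 10.8, 8.03 and 6.61 CPM in WT, 1.89, 2.37 and 2.52 CPM in untreated HSA-LR and 2.01, 1.73 and 2.31 CPM in treated mice. The untreated and treated HSA-LR mice overlapped, below every WT mouse (log2 fold change -2.08, SE 0.207, adjusted P = 0.0035). Casr (chromosome 16, 36493696 to 36562141, minus strand), the calcium-sensing receptor, had 7.86, 5.86 and 8.8 CPM in WT, 3.09, 3.64 and 3.39 CPM in untreated HSA-LR and 2.34, 2.81 and 2.21 CPM in treated mice (log2 fold change -1.61, SE 0.171, adjusted P = 0.00468). Here the treated mice lay farther from WT than the untreated HSA-LR mice did, although the difference between those groups was not called (-0.46, adjusted P = 0.15).

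Aebp1 (chromosome 11, 5861947 to 5872088, plus strand), a gene for a matrix protein linked to collagen, had 199, 194 and 183 CPM in WT, 94.8, 105 and 97.5 CPM in untreated HSA-LR and 109, 105 and 123 CPM in treated mice (log2 fold change -0.77, SE 0.0858, adjusted P = 0.00576). All HSA-LR mice, treated or not, lay below all WT mice. Tgfb2 (chromosome 1, 186622792 to 186705989, minus strand), the ligand TGF-β2, had 25.9, 22.1 and 19.5 CPM in WT, 15.4, 15.9 and 16 CPM in untreated HSA-LR and 11.8, 11.2 and 12.7 CPM in treated mice. Its treated mice lay below both other groups, with a log2 fold change of -0.92 against WT (SE 0.11, adjusted P = 0.00781) and of -0.41 against untreated HSA-LR mice (adjusted P = 0.0655). The cytochrome P450 gene Cyp4f39 was at 1.01 to 1.59 CPM in WT and 0.200 to 0.317 CPM in treated mice (log2 fold change -2.42, SE 0.268, adjusted P = 0.00576). Kcns1, a silent subunit of voltage-gated potassium channels, was at 0.272 to 0.523 CPM in WT and 0.00799 to 0.0226 CPM in treated mice, a level of few counts (log2 fold change -4.71, SE 0.497, adjusted P = 0.00468).

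**Figure D2:**
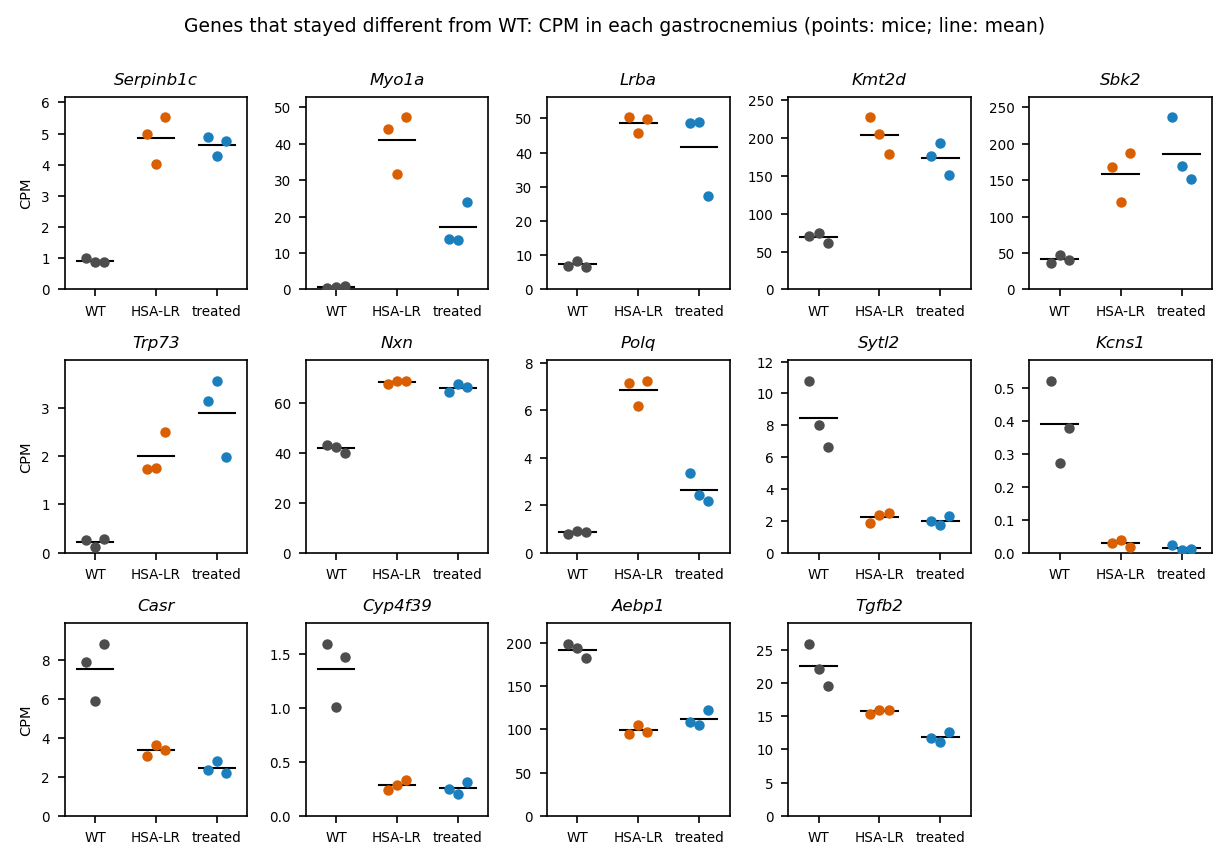
CPM (y axis, from 0) of the 14 named genes that stayed different, in the gastrocnemius of WT, untreated HSA-LR and treated mice, with 1 point per mouse and a line at the mean of 3. The first 8 genes were higher and the last 6 lower in treated than in WT mice, and Polq is one whose treated mice lie between both other groups.

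Txlnb was newly changed and had the lowest P of all genes tested against WT. It encodes beta-taxilin, a protein of skeletal and cardiac muscle that binds syntaxins. Txlnb (chromosome 10, 17796226 to 17845665, plus strand, GRCm38, GENCODE M21) had 390, 419 and 405 CPM in WT, 344, 339 and 334 CPM in untreated HSA-LR and 1840, 2090 and 1610 CPM in treated mice. The untreated HSA-LR mice lay just below the WT mice, and each treated mouse lay more than 1000 CPM above them. The log2 fold change was 2.19 against WT (SE 0.11, adjusted P = 7.27e-05), 2.44 against untreated HSA-LR mice (adjusted P = 2.86e-05) and -0.25 in untreated HSA-LR against WT mice (adjusted P = 0.17). In the quadriceps it was 2.12 against WT (SE 0.107, adjusted P = 0.000133).

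The Txlnb transcript holds a run of 9 CTG repeats, the DNA form of the sequence that the CAG oligomer pairs with, and the run is printed here because Txlnb is the largest new difference at a high level. It lies in the 5′ UTR at bases 75 to 101 of transcript ENSMUST00000037964.6, chr10:17796330-17796356 on the plus strand of GRCm38, and the capitals mark the repeats.
Txlnb: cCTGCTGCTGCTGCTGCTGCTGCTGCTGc
The run falls in the second of the 12 exon bins (17796256 to 17796421), which had 10.2, 10.3 and 10.3 CPM in WT and 40.9, 50.5 and 29.1 CPM in treated mice, a ratio of 3.92. From the third to the last bin, all of which lie 3′ of the run, the ratio of means ran from 3.11 to 4.79. The first bin, 30 bases at the very 5′ end (17796226 to 17796255), went the other way, with 12, 12 and 23 counts in WT, 7, 12 and 8 in untreated HSA-LR and 9, 10 and 3 in treated mice. As a share of the gene it was lower in all treated mice than in all WT mice (log2 difference relative to the gene -3.09, adjusted P = 1.94e-07 from edgeR's diffSpliceDGE), on few counts.

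The other called gene with at least 7 uninterrupted CTG was Cdh4, which encodes the adhesion molecule R-cadherin. Its run of 11 CTG is in a noncoding transcript, ENSMUST00000124708.1, at chr2:179444343-179444375 on the plus strand, and the first 30 of its 33 bases are printed, all of them repeats.
Cdh4: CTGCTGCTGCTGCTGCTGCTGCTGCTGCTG
Cdh4 stayed lower, with 44.9, 33.9 and 26.6 CPM in WT, 11.5, 13.3 and 8.33 CPM in untreated HSA-LR and 10, 15.5 and 16.9 CPM in treated mice (log2 fold change -1.31, SE 0.254, adjusted P = 0.0745). Treated and untreated HSA-LR mice overlapped, so the 2 called genes with a run differed both in direction and in whether the untreated HSA-LR mice shared the change. Over 20 alternative fits, with other methods, filters and sample sets, Cdh4 was called in 11 and Txlnb in all 20. Of 65 genes with such runs 50 were tested, 2 were called (4.0%) and the median log2 fold change was -0.01. Over all genes tested 1.04% were called, and 2 calls are too few for a result about genes with runs. With runs of at least 5 CTG, 194 genes were tested and 3 were called (1.55%), the additional one being the potassium channel subunit gene Kcnab1. Runs in introns were not analysed here.

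Tmem236, a gene for a transmembrane protein of little known function (chromosome 2, 14174523 to 14221993, plus strand), was also newly changed. It had 0.139, 0.157 and 0.268 CPM in WT, 0.129, 0.151 and 0.167 CPM in untreated HSA-LR and 1.30, 1.73 and 1.27 CPM in treated mice, with no overlap (log2 fold change 2.91, SE 0.285, adjusted P = 0.0035). The difference lay in its last exon bin, partly coding (14218868 to 14221993), which had 0.139, 0.143 and 0.226 CPM in WT and 1.23, 1.62 and 1.22 CPM in treated mice. Its 3 other bins held at most 0.0719 CPM in any of these 6 mice.

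Stam, which encodes an adaptor of endosomal sorting, lies upstream of Tmem236 on the same strand and ends 24889 bases before it. As a whole gene Stam was not called (log2 fold change -0.14, adjusted P = 0.753). Its exon bin 29, partly coding and 2488 bases long (14141878 to 14144365), had 34, 42 and 49 counts in WT, 34, 27 and 26 in untreated HSA-LR and 155, 195 and 110 in treated mice. That was 1.73%, 1.98% and 2.11% of the gene's counts in WT, 1.53%, 1.29% and 1.31% in untreated HSA-LR and 8.04%, 9.35% and 9.65% in treated mice, so the treated mice stood apart from both other groups (log2 difference relative to the gene 2.21, adjusted P = 2.16e-13 from edgeR's diffSpliceDGE). The bins after it, 30 and 31, had 0.752 and 0.659 times their WT level in treated mice. Ratios also varied among the bins before it, with 0.743 in bin 28, 0.759 in bin 18, 0.991 in bin 9 and 1.08 in bin 6. In untreated HSA-LR mice bin 31 was at 1.04, 0.832 and 0.792 CPM, against 1.30, 1.06 and 1.17 CPM in WT. In bin 31 the treated mice had 0.772, 0.663 and 0.888 CPM, overlapping the untreated HSA-LR mice. Bin 30 was at 3.72, 3.81 and 3.57 CPM in WT and 3.89, 3.9 and 3.78 CPM in untreated HSA-LR mice. All treated mice were lower there (3.2, 2.5 and 2.65 CPM). In bins 18 and 28 the lowest treated mouse was mouse 3 (0.418 and 0.398 CPM), whose 5′ coverage was low. The cause of the lower levels was not tested. The unnamed transcript Gm37499 between both genes was at 0.145 to 0.254 CPM in WT and 0.153 to 0.224 CPM in treated mice. Stam and Tmem236 were set side by side after their values were seen.

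Of the other genes newly higher in treated mice, Myc, the growth transcription factor, had 3.49, 3.26 and 4.78 CPM in WT and 6.77, 7.16 and 7.81 CPM in treated mice (log2 fold change 0.91, adjusted P = 0.0433). Fhl3, a LIM domain protein of the Z-disc, had 238, 238 and 193 CPM in WT, 258, 290 and 238 CPM in untreated HSA-LR and 367, 405 and 310 CPM in treated mice (0.69, adjusted P = 0.0692). Rpn1, a subunit of the oligosaccharyltransferase of the endoplasmic reticulum, rose by 0.55 on the log2 scale (adjusted P = 0.0902) and Mlph, the linker of Rab27 and myosin Va, by 0.95 (adjusted P = 0.0987). In all 4 genes the untreated HSA-LR mean lay between the means of WT and treated mice.

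Gadd45b, a stress-induced gene of the Gadd45 family, had 12.8, 10.4 and 8.01 CPM in WT, 18.1, 14.2 and 10.9 CPM in untreated HSA-LR and 3.07, 3.71 and 3.82 CPM in treated mice. The treated mice lay below both other groups, whose ranges overlapped, and the log2 fold change was -1.56 (SE 0.217, adjusted P = 0.0181). Also newly lower were Stum, a gene of mechanosensory neurons (log2 fold change -1.42, adjusted P = 0.0414), Dglucy, the mitochondrial D-glutamate cyclase (-0.79, adjusted P = 0.0531), Togaram1, a regulator of microtubules in cilia (-0.49, adjusted P = 0.0602), the phospholipase gene Plb1 (-0.92, adjusted P = 0.0719) and Prelp, a proteoglycan of the matrix (-0.63, adjusted P = 0.0768). For Stum and Togaram1 the untreated HSA-LR mean was above WT, and for Dglucy, Plb1 and Prelp it was between WT and treated mice.

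Cdkl2 (chromosome 5, 92006074 to 92043883, minus strand), which encodes a kinase related to the cyclin-dependent kinases, crossed over. It had 6.31, 5.92 and 4.86 CPM in WT, 6.84, 7.70 and 8.43 CPM in untreated HSA-LR and 3.20, 3.05 and 3.08 CPM in treated mice, so the 3 groups did not overlap. Relative to WT, the log2 fold change of Cdkl2 was 0.43 without treatment (adjusted P = 0.065) and -0.87 with it (adjusted P = 0.0236). Of the genes called against WT alone, the lipid phosphatase gene Plpp1 was higher (0.60, adjusted P = 0.0808), whereas Padi2, a peptidylarginine deiminase (-1.14, adjusted P = 0.09), the semaphorin gene Sema6d (-0.68, adjusted P = 0.0974) and the adhesion receptor gene Adgrl2 (-0.71, adjusted P = 0.0987) were lower. In each of these the untreated HSA-LR mean lay between WT and treated mice.

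**Figure D3:**
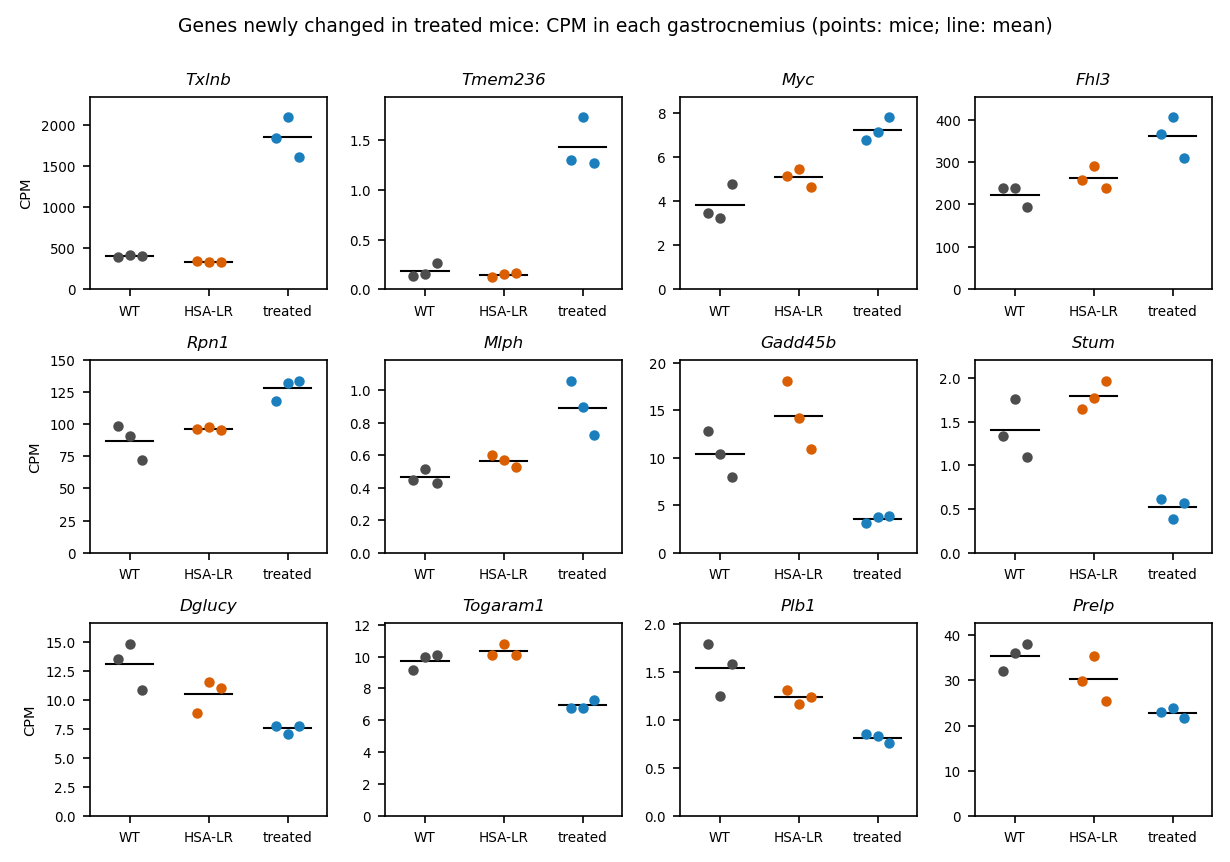
CPM (y axis, from 0) of the 12 named genes that were newly changed, in the gastrocnemius of WT, untreated HSA-LR and treated mice, with 1 point per mouse and a line at the mean of 3. The 3 treated mice lie above both other groups for the first 6 genes and below them for the last 6.

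Lists of genes by function were then described by counts and medians, beside 93 higher, 70 lower and a median log2 fold change of 0.0 over all genes tested. At an unadjusted P under 0.05, 5.05% of all genes were higher and 5.45% lower.

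Most of the lists held from 17 to 45 genes, for which the 1.04% of all genes that were called comes to less than 1 gene, so a count of 0 in 1 list is not a result about it. Among 22 splicing regulators tested, 0 were called (median -0.02), with Mbnl1 at 331, 319 and 282 CPM in WT and 285, 378 and 285 CPM in treated mice. Among 28 sarcolemmal ion channels and pumps, 0 were called (median -0.03). Clcn1 had 355, 355 and 267 CPM in WT, 213, 190 and 175 CPM in untreated HSA-LR and 292, 347 and 273 CPM in treated mice, so treated and WT mice overlapped (log2 fold change -0.10, SE 0.14, adjusted P = 0.865). Among 28 genes of calcium handling in the sarcoplasmic reticulum, 0 were called (median 0.10), and 4 were higher and 0 lower at an unadjusted P under 0.05. The smallest P belonged to Srl, a calcium-binding protein of the reticulum lumen, with 1210, 1070 and 1170 CPM in WT and 1460, 1750 and 1510 CPM in treated mice (log2 fold change 0.45, adjusted P = 0.141).

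In the list of 36 genes named for the Z-disc and giant sarcomere proteins, 2 were higher, Txlnb and Fhl3, and 0 lower (median -0.02). Txlnb encodes the syntaxin-binding protein described above, and the lists were chosen with earlier results of these data known. The count of 2 is therefore not a result about the Z-disc. None was called among 21 genes of the neuromuscular junction and denervation (median -0.01), and 4 were higher and 1 lower at an unadjusted P under 0.05. The lower one was Chrnb1, a subunit of the acetylcholine receptor. It had 50.1, 40.9 and 55.7 CPM in WT and 34.4, 33.2 and 29.5 CPM in treated mice (-0.60, adjusted P = 0.126). None was called among 21 calcium/calmodulin kinase and calcineurin genes (median -0.07).

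Fiber type genes depended on treated mouse 1. Of 17 slow fiber genes 0 were called and the median log2 fold change was 0.60. Their summed level was 4180, 7630 and 9870 CPM in WT and 20700, 5570 and 4840 CPM in treated mice, so treated mouse 1 was the highest and the other two overlapped WT. Without treated mouse 1 the median was -0.51. Without treated mouse 3 it was 1, without treated mouse 2 it was 0.95, and without WT mouse 1 it was 0.35. The 18 fast fiber genes had a median of 0.18, with 0 called, which became 0.30 with treated mouse 1 left out and 0.01 with treated mouse 3 left out. Of 21 developmental and regeneration genes 1 was lower, Actc1, the actin of heart and of developing muscle (median -0.08). Actc1 had 35.7, 48.8 and 286 CPM in WT, 6.43, 5.07 and 8.84 CPM in untreated HSA-LR and 11.8, 10.7 and 4.85 CPM in treated mice (log2 fold change -3.76, SE 0.771, adjusted P = 0.09), and WT mouse 3 stood far above the other WT mice. Actc1 was also the only call among the 9 actins, transgene-locus genes and Dmpk neighbors tested (median -0.08). The mouse Acta1 gene was at 35600, 34600 and 36500 CPM in WT and 36000, 39900 and 42600 CPM in treated mice (log2 fold change 0.15, adjusted P = 0.723).

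In signaling and metabolism, Irs1, the adaptor of the insulin receptor, stayed lower with 43.6, 49.0 and 49.7 CPM in WT, 21.2, 21.5 and 17.6 CPM in untreated HSA-LR and 25.2, 22.8 and 29.3 CPM in treated mice (log2 fold change -0.88, SE 0.117, adjusted P = 0.0143). Each treated mouse lay above every untreated HSA-LR mouse and below every WT mouse. Acvr2a, a receptor for activin and myostatin, had 40.9, 34.3 and 19.3 CPM in WT and 13.2, 16.2 and 12.3 CPM in treated mice (-1.18, adjusted P = 0.0808). Of the 33 genes of insulin, IGF and myostatin signaling, these 2 were called, both lower, and 2 were higher and 7 lower at an unadjusted P under 0.05 (median -0.05). Among the uncalled ones Igfbp5, an IGF-binding protein, had 664, 594 and 653 CPM in WT and 347, 457 and 415 CPM in treated mice (-0.65, adjusted P = 0.108). Among 18 genes of AMPK and PGC-1, Prkag2, the gamma-2 subunit of AMPK, was lower (-0.63, adjusted P = 0.0974; median 0.0). None was called among 30 genes of glycolysis and glycogen (median 0.16), 38 of fatty acid uptake and oxidation (0.08) or 26 of polyamine and amino acid metabolism (0.04).

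In protein turnover and stress, Eda2r, a receptor of the TNF family, was higher among 33 proteasome and atrophy genes (median 0.04) and among 25 p53 targets (median -0.06). It had 13.2, 10.9 and 9.32 CPM in WT, 84.3, 67.5 and 88.5 CPM in untreated HSA-LR and 17.8, 25.7 and 20.4 CPM in treated mice, close to WT but without overlap (log2 fold change 0.93, SE 0.172, adjusted P = 0.0659). The p53 target Phlda3, an inhibitor of Akt signaling, was at 25.5, 18.9 and 19.9 CPM in WT, 56.7, 53.8 and 69.5 CPM in untreated HSA-LR and 30.4, 36.5 and 35.6 CPM in treated mice (0.68, adjusted P = 0.0964). With Gadd45b, the p53 list thus had 2 genes higher and 1 lower. Ppp1r15a, which directs the dephosphorylation of eIF2α, was the only call among 30 genes of the endoplasmic reticulum and integrated stress response and was lower (-0.82, adjusted P = 0.0795; median -0.01). Lrba was the only call among 38 autophagy and lysosome genes (median -0.03), Kmt2d the only one among 32 histone methyltransferases and demethylases (median -0.02), and none was called among 23 heat shock genes (0.16, but 0.36 and 2 calls without WT mouse 3) or 29 cell cycle genes (0.05).

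In the immune lists, none was called among 37 interferon-stimulated genes and nucleic acid sensors (median 0.08), 19 antigen presentation genes (-0.04) or 26 complement and acute phase genes (-0.04). Of the interferon-stimulated genes and sensors, 4 were higher and 0 lower at an unadjusted P under 0.05. Their median was -0.06 without treated mouse 3. Summed, that mouse had 197 CPM, the other treated mice 141 and 141 CPM and the WT mice 142 to 153 CPM. For antigen presentation the median was -0.57 without treated mouse 3, whose summed level of the list was 539 CPM against 276 and 253 CPM in the other treated mice and 294 to 388 CPM in WT. Among 25 cytokines and chemokines Tgfb2 was the only call (median -0.20), and among 45 collagens and matrix genes 0 were called (median -0.21), with 0 higher and 5 lower at an unadjusted P under 0.05.

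Of the function lists, the immediate early genes had the lowest median. They are transcription factors and other genes that respond within minutes to a stimulus. Of the 26 members, 2 were called lower and 1 higher, the median log2 fold change was -0.99, and 13 were lower and 1 higher at an unadjusted P under 0.05. Their summed level was 1160, 903 and 1100 CPM in WT, 1110, 846 and 444 CPM in untreated HSA-LR and 495, 543 and 509 CPM in treated mice, so the treated mice lay below the WT mice, with HSA-LR mouse 3 below them and the other two HSA-LR mice above. Junb, a subunit of AP-1, had 67.6, 21 and 22.1 CPM in WT and 4.27, 5.72 and 7.53 CPM in treated mice (log2 fold change -2.66, SE 0.53, adjusted P = 0.0808). Fosb, another subunit, had 5.68, 3.70 and 15.5 CPM in WT and 0.468, 1.53 and 0.521 CPM in treated mice (-3.29, SE 0.705, adjusted P = 0.0987). The member called higher was Myc. Among the uncalled members, Fos had 38.0, 29.2 and 85.0 CPM in WT and 7.47, 14.6 and 4.86 CPM in treated mice (-2.49, adjusted P = 0.208), and Klf4 had 46.8, 56.9 and 48.5 CPM in WT and 25.4, 21.8 and 22 CPM in treated mice (-1.14, adjusted P = 0.191). The median stayed between -1.10 and -0.93 with each WT and each treated mouse left out. The calls of the list, however, fell to 0 without WT mouse 1, WT mouse 2 or treated mouse 2. Junb and Fosb also lost their calls without treated mouse 1 or treated mouse 3, while Myc kept its call there. Of 20 circadian clock genes 0 were called (median -0.04). Neither the time of day at dissection nor its duration is given in the sources used here.

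Among 21 cytosolic and unconventional myosins, Myo1a and Myo5a, a motor of vesicle transport, were higher (median -0.03). Myo5a had 14.8, 11.4 and 7.09 CPM in WT, 35.1, 43.7 and 46.1 CPM in untreated HSA-LR and 26.3, 33.7 and 26.0 CPM in treated mice (log2 fold change 1.36, SE 0.239, adjusted P = 0.0502). Among 26 cadherins, catenins and adhesion genes Ctnna3, the alpha-T-catenin of muscle junctions, was higher (0.62, adjusted P = 0.0293) and Cdh4 lower (median -0.18). Ctnna3 had 4.52, 4.12 and 3.9 CPM in WT, 15.6, 15.9 and 17.6 CPM in untreated HSA-LR and 6.56, 6.45 and 6.27 CPM in treated mice. Its treated mice thus lay nearer to WT than to untreated HSA-LR mice. In larger families the counts, to be read against 1.04% of all genes, were 2 of 60 potassium channel genes lower, 1 of 18 serpins higher, 2 of 255 solute carriers higher, 1 of 325 zinc finger genes lower, 0 of 80 nuclear oxidative phosphorylation subunits and 0 of 57 cytosolic ribosomal proteins called. For the ribosomal proteins the median was 0.22, and 0.04 without treated mouse 3.

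**Figure D4:**
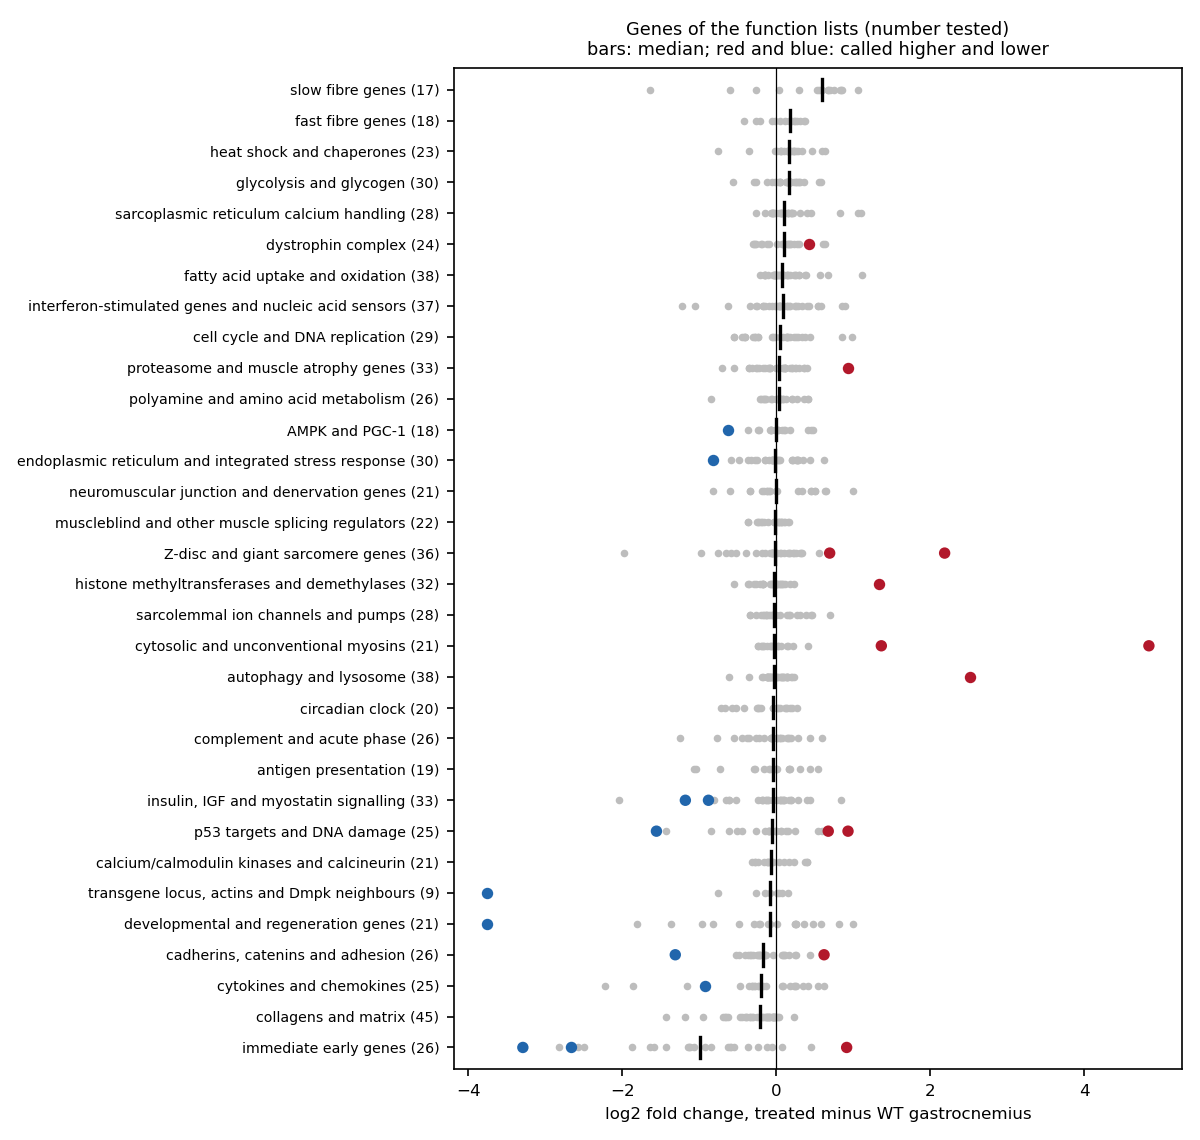
Log2 fold change in treated minus WT gastrocnemius (x axis) of each tested member of the function lists (rows, with the number tested), ordered by the list's median, which is drawn as a bar. Called members are red where higher and blue where lower. The immediate early genes have the lowest median, -0.99, and the slow fiber genes the highest, 0.60, which was -0.51 without treated mouse 1.

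Single exon bins were also tested against the rest of their gene. Of 172719 bins in 11585 genes, 113 were called in treated against WT mice (0.0654%), 87 used more and 26 used less, and they lay in 41 genes. Against that, 0.819% of bins were called in untreated HSA-LR against WT mice. In 96 of the 113 bins the treated mice did not overlap the WT mice in the bin's share of the gene, compared with 9.01% of all bins tested. By the same sorting as for genes, 91 bins stayed different, 12 were newly changed and 10 were neither. Only 3 of the 41 genes were also called as genes.

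The called bins gathered in a few long genes: 45 in Kmt2d, 11 in Kmt2c, which encodes the sister methyltransferase of Kmt2d, 8 in Ttn and 6 in the glucocorticoid receptor gene Nr3c1. In Kmt2d and Kmt2c the last part of the gene differed least. With the bins of a gene divided into 3 parts of near equal bin number from 5′ to 3′, the treated mice had 7.12, 7.27 and 1.81 times the WT level of Kmt2d, and untreated HSA-LR mice had 10.7, 9.33 and 1.93 times. For the first part of Kmt2d this was 2.45, 2.86 and 1.90 CPM in WT and 17.7, 22.8 and 10.8 CPM in treated mice. For Kmt2c the ratios were 2.07, 5.24 and 0.987 in treated and 4.02, 12.8 and 1.03 in untreated HSA-LR mice, so the last part was near the WT level in both. Nr3c1 had 3.77, 2.63 and 1.26 times the WT level in treated mice. Lrba, in contrast, was raised in all 3 parts (5.34, 6.16 and 5.65 times) and had 0 called bins, as Txlnb was (4.44, 4.66 and 4.58 times) apart from its first bin. Treated mouse 3, with its lower 5′ coverage, was the lowest treated mouse in the first part of Kmt2d and the middle of the 3 for Kmt2c.

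**Figure D5:**
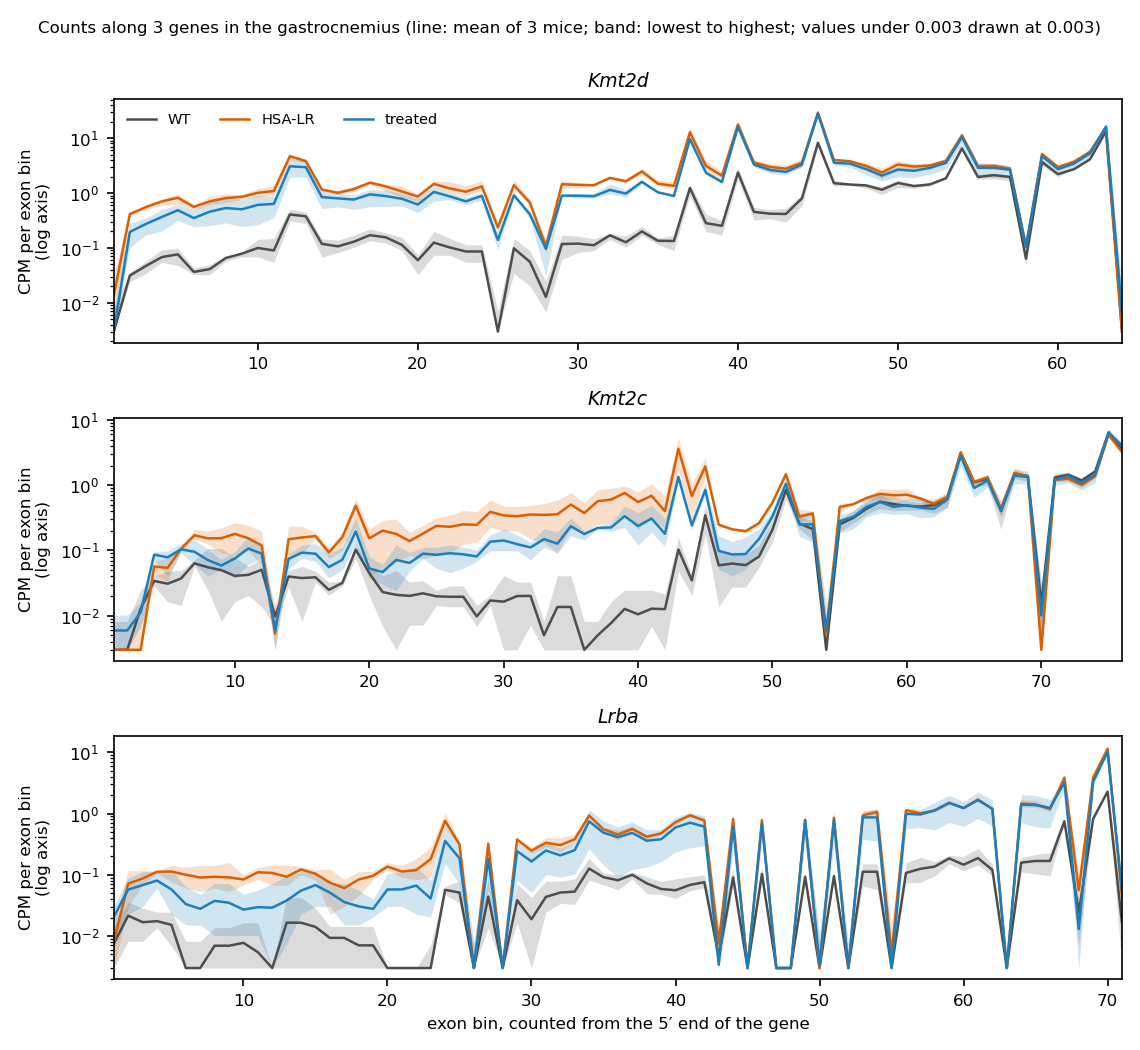
Mean CPM per exon bin (y axis, log scale) along Kmt2d, Kmt2c and Lrba, with bins counted from the 5′ end on the x axis and a band from the lowest to the highest of 3 mice, for WT, untreated HSA-LR and treated gastrocnemius. The treated line lies above WT over the 5′ part of Kmt2d and Kmt2c and meets it toward the 3′ end of Kmt2c, while for Lrba it lies above WT at most bins, some of the others being at or near 0 in all groups.

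Bins keep the number of the deposited files, which follows the coordinate. Among single bins used more, bin 34 of Kmt2c (chromosome 5, 25313980 to 25315736, coding) had 19, 15 and 7 counts in WT, 705, 502 and 205 in untreated HSA-LR and 160, 167 and 145 in treated mice (log2 difference relative to the gene 3.49, adjusted P = 7.74e-16 from edgeR's diffSpliceDGE). Bin 28 of Kmt2d had 169, 201 and 130 counts in WT, 2035, 1673 and 1250 in untreated HSA-LR and 1256, 1306 and 861 in treated mice (1.63, adjusted P = 1.34e-10). A noncoding bin of Mllt3, a gene of the super elongation complex, had 1, 0 and 1 counts in WT, 36, 39 and 40 in untreated HSA-LR and 28, 19 and 19 in treated mice (bin 14, chromosome 4, 87837419 to 87840681, adjusted P = 5.43e-10). In these 3 bins all treated mice were above all WT mice, and as a share of the gene they overlapped the untreated HSA-LR mice in the bins of Kmt2c and Mllt3.

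Among bins used less, bin 9 of Vdac1, the anion channel of the outer mitochondrial membrane, had 527, 628 and 662 counts in WT and 282, 223 and 236 in treated mice (-1.21, adjusted P = 1.67e-06). Bin 30 of Idh3g, a subunit of isocitrate dehydrogenase, had 94, 133 and 146 counts in WT, 89, 0 and 80 in untreated HSA-LR and 39, 31 and 37 in treated mice (-1.58, adjusted P = 1.27e-05). Both bins are noncoding. In Asph, which encodes junctin and aspartyl hydroxylase, bins 32 and 33 were used less (adjusted P = 0.00393 and 0.000619), bin 33 making up 1%, 0.969% and 1.39% of the gene in WT, 0.171%, 0.152% and 0.126% in untreated HSA-LR and 0.535%, 0.592% and 0.510% in treated mice. Asph was named after its values were seen, and bin 33 was not called without WT mouse 3 (adjusted P = 0.136).

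Other bins rested on 1 mouse or did not separate the groups. Bin 332 of Ttn, the giant spring protein of the sarcomere, had 772 counts in treated mouse 1 against 40 and 39 in the other treated mice and 36 to 42 in WT, and without treated mouse 1 the log2 difference relative to the gene fell from 2.92 to 0.34 (adjusted P = 1). Bin 7 of Pitpnb, of 8 bases, had 7, 99 and 71 counts in treated and 7, 4 and 3 in WT mice. Bin 48 of Neb had 759, 443 and 2982 counts in WT and 730, 239 and 107 in treated mice, and without WT mouse 3 it was not called (log2 difference relative to the gene -0.78, adjusted P = 1). Bin 9 of Sms was called on treated mouse 2 and another bin of Ttn on treated mouse 3, and each lost its call without that mouse (adjusted P = 1). These 2 bins were named after their values were seen.

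The quadriceps gave a further set of values for the calls of the gastrocnemius. Its libraries carry the same replicate numbers, the study describes both muscles as taken from the same treated mice, and the quadriceps is not counted as further animals. There 219 of 15574 genes were called in treated against WT mice (1.41%). Of the gastrocnemius calls 162 were tested in the quadriceps, and 72 were called there with the same sign and 0 with the opposite sign, among them 66 of 137 genes that stayed different and 4 of 18 newly changed. The 4 were Txlnb, Tmem236, Stum and Rpn1. In the quadriceps Tmem236 had a log2 fold change of 3.27 (adjusted P = 0.0142), Stum of -1.44 (adjusted P = 0.0833) and Rpn1 of 0.51 (adjusted P = 0.05), whereas Gadd45b had -1.14 (adjusted P = 0.114). Myo1a (4.34, adjusted P = 0.000371), Lrba (3, adjusted P = 0.000949), Kmt2d (1.49, adjusted P = 0.00108) and Sytl2 (-2.09, adjusted P = 0.00108) were called in both muscles. Tgfb2 was not called in the quadriceps (-0.29, adjusted P = 0.409). The difference between muscles was tested for 16167 genes and called for 0 (0.0%), with 589 genes at an unadjusted P under 0.05 and a smallest adjusted P of 0.986. That fit treats the muscles of a mouse as independent, and with the mouse as a block the count was also 0. With 3 mice a group, this does not show that the muscles were alike. The 72 shared calls fell to 27 without treated mouse 1, 32 without treated mouse 2, 35 and 36 without WT mouse 1 or 2, and 40 without HSA-LR mouse 2.

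The counts of calls depended on single mice. Without treated mouse 3, 195 genes were called, 113 of them among the 163, and without treated mouse 1, 88 were called, 70 of them among the 163. Without treated mouse 2, WT mouse 1, WT mouse 2, HSA-LR mouse 1 or HSA-LR mouse 2, the counts were 55, 80, 47, 88 and 79, of which 52, 70, 45, 83 and 77 were among the 163. Called in all 20 alternatives were 30 genes, 20 that stayed higher, 7 that stayed lower and 3 newly changed, Txlnb, Tmem236 and Gadd45b. The named genes among the 27 that stayed different were Serpinb1c, Myo1a, Lrba, Kmt2d, Sbk2, Trp73, Nxn, Polq, Sytl2, Casr, Cyp4f39, Aebp1, Tgfb2 and Irs1. The other 13, named for this and after their values were seen, were Gm830, Plekho1, Plp2, Uchl1, Cgref1, Col9a1, Galnt7, Gpr27, Hspa2, Osbpl3, Hlx and 4933415F23Rik, which were higher, and the growth factor gene Fgf11, which was lower. Uchl1, a deubiquitinating enzyme abundant in neurons, had 5.83, 6.37 and 7.15 CPM in WT, 49.2, 40.0 and 40.5 CPM in untreated HSA-LR and 14.3, 12.0 and 15.9 CPM in treated mice (2.18 times WT, adjusted P = 0.00781). Its treated mice lay near WT, while those of Col9a1, a chain of collagen IX, spread over 10.4, 3.75 and 8.32 CPM against 1.15 to 1.53 CPM in WT and 9.91 to 10.7 CPM in untreated HSA-LR mice (log2 fold change 2.55, SE 0.323, adjusted P = 0.0114). Without treated mouse 1, Fhl3, Rpn1, Mlph, Dglucy, Togaram1 and Myo5a were among the named genes no longer called. Without treated mouse 3, Rpn1, Plb1, Prelp, Padi2, Adgrl2, Actc1, Acvr2a, Prkag2, Ppp1r15a, Phlda3, Junb and Fosb were no longer called.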

How the data were processed

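The authors deposited raw counts of RNA-seq reads per exon bin in DEXSeq format for each library. The labels name CASAVA, HISAT, featureCounts 1.5.0 and GRCm38 for the processing, on TruSeq Stranded polyA libraries. Rows without a gene held 3.10% to 3.66% of counts in the gastrocnemius libraries and were left out. Bins were summed to 46725 genes. A reference table of gene names gave a symbol for 46520 of them, and GENCODE M21 gave positions. Positions are given only for the 41211 genes whose versioned ID matched. Reads shared by overlapping genes or close paralogs could be assigned differently by the counting. Every pair of replicates differed by more than sampling noise.

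Genes were tested with edgeR 4.0.16 in R 4.3.3 (quasi-likelihood test, TMM, filterByExpr with a minimum count of 10 and a minimum total of 15, Benjamini-Hochberg adjustment, called at an adjusted P under 0.1) on the 9 gastrocnemius libraries, with each pair of groups as a contrast. Exon bins were tested with diffSpliceDGE on the same libraries. The quadriceps had its own fit, and the difference between muscles was an interaction term over all 18 libraries, with the mouse as a block as an alternative, since both muscles are described as from the same treated mice. Levels are TMM-scaled CPM. The tests were tried on simulated counts. P values measure the spread between these mice only. DESeq2 1.42.0, limma 3.58.1, other scalings, filters and sample sets were alternatives.

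Named were the 8 higher and 6 lower genes that stayed different, the 6 higher and 6 lower newly changed, those with opposite directions, up to 3 higher and 3 lower called against WT alone (each by smallest P, passing over numbered models), every called list member and CTG run gene, the first 6 bins used more and 4 used less with 1 bin per gene, fixed check genes, and up to 4 uncalled members of a list. The members and lists were chosen with earlier results of these data known. Introns were not analysed here, and a few genes are not reported here. Tables and figures were made with Python 3.11.15, pandas 2.3.3, numpy 2.4.6 and matplotlib 3.10.9.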

Additional observations from a re-analysis of the deposited data

How the results depend on the processing

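Against 163 genes called in treated against WT gastrocnemius, DESeq2's Wald test called 529 (all 163 among them), the slow fiber level as a covariate 265 (160 of the 163), a fit of the 6 WT and treated libraries alone 56 (51 of the 163), and leaving out 1 of the 9 libraries in turn 47 to 195. For genes that stayed different (138), DESeq2 gave 353 and leave-one-out fits 42 to 160. For newly changed genes (18), DESeq2 gave 91, limma voom 10, the slow fiber covariate 49 and leave-one-out fits 3 to 22. The other alternatives (other scalings, filters, the largest exon bin, the coverage ratio as a covariate, limma voom) gave 124 to 212 calls in all. With the largest exon bin 1 of the 163 genes changed sign. Exon bin calls (113) ran from 78 to 134, and the difference between muscles stayed at 0 calls, with the mouse as a block too. The 72 calls shared with the quadriceps ran from 27 to 85 with 1 library left out. With the replicate number as a block, 63 genes were called (57 of the 163), 58 stayed different, 4 were newly changed, 102 exon bins were called and 38 genes were shared with the quadriceps. Deviations of gastrocnemius libraries from their group means were correlated over pairs from different groups. The median r was -0.0693 over 9 pairs with the same replicate number (-0.25 to 0.125). Over 18 pairs with different numbers it was 0.032 (-0.246 to 0.247). With 3 libraries a group, these values cannot decide whether libraries of the same number were handled together. The share of higher among all calls, 57.1%, was 71.4% with that block, 71.2% without WT mouse 1, 69.3% without treated mouse 1 and 72.7% without treated mouse 2. Of the named genes, only uncalled ones changed sign: Clcn1 to 0.06 with the largest exon bin, Mbnl2 to -0.01 with the slow fiber covariate, and 4 with 1 library left out. Of those, Mbnl1 ran from -0.12 to 0.10 (below 0 without WT mouse 3, -0.04, or treated mouse 2), Mbnl2 from -0.09 to 0.30 (below 0 without WT mouse 1, -0.05, treated mouse 1 or treated mouse 2, -0.06), Atp2a1 from -0.10 to 0.03 (above 0 without treated mouse 1) and Ddx3y from -0.11 to 0.95 (below 0 without WT mouse 3). Where fewer libraries entered a fit there were fewer degrees of freedom, and beyond that the cause of these changes was not tested. Genes near 0.01 CPM, such as Kcns1 in treated mice, are at the limit of the depth.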

Other observations

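Among families not described above, 0 of 32 histone genes tested were called (median log2 fold change in treated minus WT gastrocnemius 0.36), 0 of 23 microRNA and small RNA host genes (0.20, and 0.05 without treated mouse 3), 0 of 6 mitochondrially encoded genes (-0.12, and 0.12 without treated mouse 3) and 0 of 23 homeobox Hox genes. One gene each was called lower among 138 ubiquitin ligase adaptors (median -0.06) and 65 phosphatase subunits (0.03), and 1 of 77 ankyrin repeat and leucine-rich repeat genes was called higher (0.0).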
